A study of Homo sapiens with 36 samples.

Results

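Low-share peaks are the m6A peaks that the authors' deposited tables give a methylated share under 0.25 in scramble cells, a value read from the column p.control. The peaks were thus chosen by that share, a measured value of the same contrast as the share in the shRNA libraries. They number 327 of the 941 rows in 4 tables of differential peaks. By table, 254 of 721 rows qualified for ALKBH5 shRNA-1, 64 of 182 for ALKBH5 shRNA-2, 4 of 20 for RBM33 shRNA-1 and 5 of 18 for RBM33 shRNA-2. The 327 rows fell on 311 separate positions in 258 genes. The cells were labelled UM-SCC-1, an established head and neck squamous carcinoma line. All groups were infected with shRNA-carrying retrovirus and kept in blasticidin at 10 ug/mL for 4 days. The ALKBH5 set held a scramble shRNA and 2 shRNAs against ALKBH5 (shRNA-1 and shRNA-2). The RBM33 set held its own scramble and 2 shRNAs against RBM33, numbered in the same way. Each group was sampled 3 times as input RNA and 3 times as m6A-enriched RNA, which gives 36 samples. The titles say shRNA, whereas the protocol text says siRNA, and the cells are a single line.

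N6-methyladenosine (m6A) is a methyl group on adenosines inside RNA, placed by the METTL3 and METTL14 complex mostly at sites that contain GGAC or a close relative. ALKBH5 is a demethylase that removes the mark, and RBM33 binds both RNA and ALKBH5. A different methylated base, m6Am, is formed where the first transcribed base of a capped RNA is an adenosine, and antibodies against m6A bind it too. In m6A-seq, fragments pulled down by such an antibody are compared with unselected input, so a methylated share of a peak runs from 0, no enriched fragments, to 1.

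Many low-share peaks of the ALKBH5 shRNA-1 table lay on the first bases of a gene, and the starts of 8 of them and of PGK1 are printed to show what the peaks cover. The choice takes members with very low scramble shares (HIST1H2AG, PDCD5, ERH, HIST1H1D), very high knockdown shares (PPP4C, FBXO18, TCEB3), 1 member that holds GGAC (TCP1) and 1 of the genes with a member in every table (PGK1). Each run is the first 30 transcribed bases, 5′ to 3′, from RefSeq on GRCh38.p14. Capitals mark the first base and each GAC or AAC.
HIST1H2AG: Gtggttgctcgtagtgagttgcgctcgcta
PDCD5: Agtggtcaaggccgcgctcgcgccgagggg
ERH: GttgtagttaagctcgtgtAACggcggcgg
HIST1H1D: AtgctgttctGACagtttgagattacttat
TCP1: AgtagctcctggGACatcgctcgggtacgc
PPP4C: Gccggaagtaggagcggcggcggcggcggc
FBXO18: Gtcccggccagaggaggagctcgctgccgg
TCEB3: AgttccggcgaggaggccgcgccagtGACa
PGK1: Gttccgcattctgcaagcctccggagcgca
A total of 55 low-share peaks of the ALKBH5 shRNA-1 table covered all of the first 30 bases of a RefSeq start. On the transcript strand, GGAC occurred in 2 of these 55 windows (3.64%), in 11.5% of 26 windows under the other rows of that table and in 10.96% of all 35097 RefSeq starts. The trinucleotides GAC or AAC, the first of which lies within GGAC, occurred in 38.2% of the 55 windows and in 49.3% of all starts. Counting both strands, GGAC was in 16.4% of the 55 windows and 20.3% of all starts, and GAC or AAC in 83.6% and 77.4%. In the 26 windows under the other rows, GAC or AAC occurred in 57.7% on the transcript strand. The first base was A in 40% of the 55 windows and G in 47.3%, against 57.7% and 30.8% of the 26 windows and 44.4% and 33.6% of all starts. These letters describe the window only.

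RNA values were used for 15 of the 18 input libraries, with 4493849 to 6733017 reads in listed genes. The ALKBH5 transcript was at 108.8 to 131.7 CPM (normalized read count per 1e6 reads) in its 3 scramble libraries and at 75.1 to 89.6 CPM in the 4 ALKBH5 shRNA libraries, with no overlap. RBM33 was at 207.2 to 227.1 CPM in its scramble and at 191.4 to 214.4 CPM in the libraries labelled RBM33 shRNA, so the RNA of the targeted gene overlapped between those groups. Squamous markers were low: of 10 fixed markers 5 have a row, and their sum was 51.9 to 82.6 CPM, nearly all EGFR and ITGA6. Of the other 3, DSG3 was at 0.162 to 3.42 CPM, CDH1 at 0.381 to 4.203 and EPCAM at 0.427 to 2.55. The markers KRT5, KRT14, KRT6A, KRT17 and TP63 have no row among the listed genes. The sums were 26.9 to 39.6 CPM for 6 fibroblast markers, 1.53 to 6.16 for 3 leukocyte markers and 1.495 to 5.47 for 2 endothelial markers. The squamous markers are thus low for cells labelled as a squamous line, and the identity of the cells was not tested. None of these markers carried a low-share peak, and the part of the low squamous markers in the results was not tested.

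In the authors' deposited table for ALKBH5 shRNA-1, the 254 low-share peaks had a median share of 0.131 in scramble and 0.440 in the knockdown. The share was higher in the knockdown at 241 of them and lower at 13. It reached 0.25 or more at 212, and passed 0.5 at 94. In the ALKBH5 shRNA-2 table the 64 low-share peaks went from a median of 0.161 to 0.394, all 64 upward, with 59 at 0.25 or more and 8 above 0.5. The 4 low-share peaks of the RBM33 shRNA-1 table went from a median of 0.220 to 0.520, and the 5 of the RBM33 shRNA-2 table from 0.117 to 0.617. A row had to differ between the groups to be listed, and a share under 0.25 has little room to fall, so the rule itself favours this direction and the counts are a description. The authors' adjusted p-values reach 0.0994 among the members, and 147 of the 327 members lie below 0.01.

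**Figure D1:**
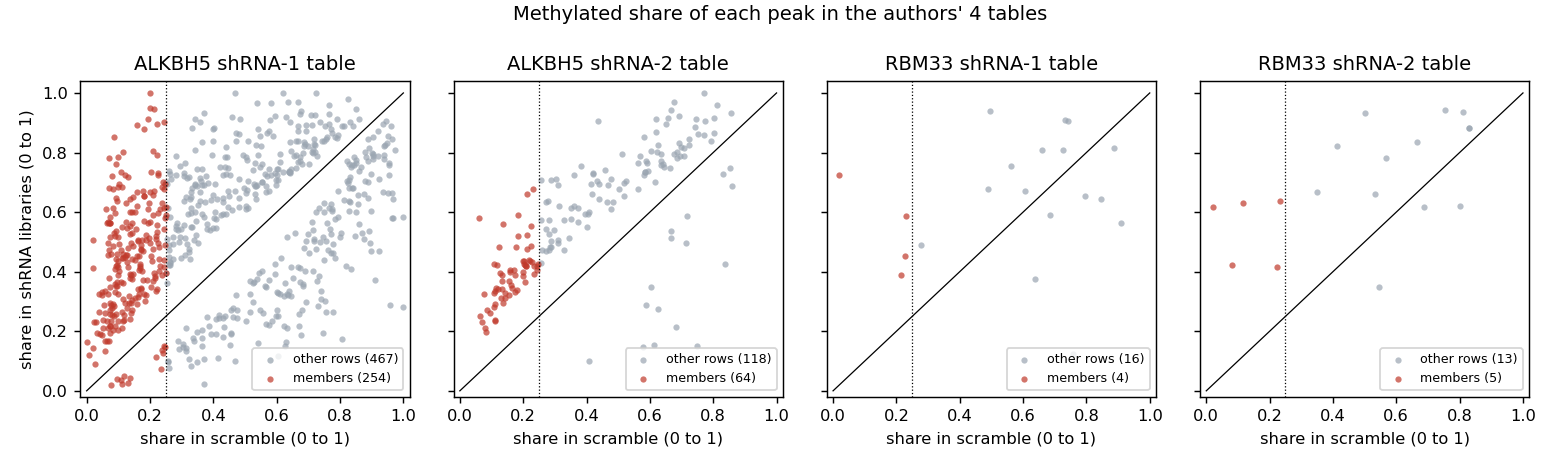
Methylated share of every row of the authors' 4 tables, in scramble (x axis, 0 to 1) against the shRNA libraries (y axis, 0 to 1), with 1 panel per table. Red points left of the dotted line at 0.25 are the low-share peaks, grey points the other rows, and points above the diagonal have a higher share in the shRNA libraries, which holds for 241 of 254, 64 of 64, 4 of 4 and 5 of 5 members.

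The threshold falls within a continuous range of values in the ALKBH5 tables and in a gap in the RBM33 tables. For ALKBH5 shRNA-1, the 3 members nearest to it had scramble shares of 0.2493 to 0.2498, AP2S1 (a clathrin adaptor subunit) and H1F0 (a linker histone) among them, and ZNF146 and FASN lay just above it at 0.2517 and 0.2518. For ALKBH5 shRNA-2, 2 peaks of YBX1 and 1 of KHSRP lay at 0.2438 to 0.2470, and a further peak of YBX1, AEN and TAF15 lay at 0.2547 to 0.2559. For RBM33 shRNA-1, ATF4, HNRNPM and FLNA lay at 0.214 to 0.231 and the next rows were TAF15 at 0.278, TSR2 at 0.489 and AMH at 0.496. For RBM33 shRNA-2, SPIN1, ATF4 and TOMM40 lay at 0.117 to 0.232 and the next rows were MTA1 at 0.348, ADGRL1 at 0.412 and AMH at 0.501.

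Among the ALKBH5 shRNA-1 members, the 6 lowest scramble shares belonged to HIST1H2AG, HIST2H2AA3, RPS19, PDCD5, HIST3H2BB and PRC1. In the authors' deposited table for ALKBH5 shRNA-1, a peak of the core histone gene HIST1H2AG (chr6:27133038-27133087, beginning 5 bases before the RefSeq start) went from 0.00157 to 0.163. HIST2H2AA3 went from 0.00758 to 0.120 and HIST3H2BB from 0.0200 to 0.145, both core histones. RPS19, a small-subunit ribosomal protein, went from 0.0195 to 0.413, and the apoptosis-associated PDCD5 from 0.0197 to 0.505. PRC1, which bundles microtubules of the spindle midzone, went from 0.0229 to 0.230. Of the 254 members, 15 lay under 0.05 in scramble and 88 under 0.1. Low in scramble did not mean high in the knockdown: 3 of these 6 stayed under 0.2.

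The highest knockdown shares belonged to other genes, most of them with scramble shares near 0.2. In the authors' deposited table the peak of DNM2, the membrane-fission GTPase dynamin 2, went from 0.201 to 1, so its odds ratio has no finite value. DDX6, an RNA helicase of mRNA decay, went from 0.1997 to 0.951, and TCEB3, the elongin A subunit of an elongation factor, from 0.211 to 0.945. RPS6KB2, an S6 kinase downstream of mTORC1, went from 0.193 to 0.912. PGLS, an enzyme of the pentose phosphate pathway, went from 0.244 to 0.902 and the readthrough gene RBM14-RBM4 from 0.223 to 0.894. By odds ratio, the finite leaders were HIST1H2AG at a log2 of 6.95 and DDX6 at 6.27. Shares near 0 or 1 make odds ratios extreme. The authors' adjusted p-values were 0.0353 for the HIST1H2AG peak at the start and 0.0374 for TCEB3. Of the 6 peaks with the highest knockdown share, 5 lay within 49 bases of a RefSeq start, the exception being PGLS.

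The 13 low-share peaks with a lower share after ALKBH5 shRNA-1 included 7 in histone genes. These were HIST1H4B (0.129 to 0.0266), both low-share peaks of HIST1H3A (0.111 to 0.0235 and 0.136 to 0.0446), both of HIST1H3H, and 1 each of HIST1H1D (0.247 to 0.146) and HIST1H2AG (0.117 to 0.0513), in the authors' deposited table. The others were RN7SK, the 7SK RNA that holds the elongation kinase P-TEFb inactive (0.0779 to 0.0189), PEBP1, VIM, NME1-NME2, PSMA7 and GPX4. In HIST1H2AG and HIST1H1D the 2 low-share peaks of the gene moved in opposite directions, the one at the start upward and the one farther in downward. For HIST1H1D the start peak went from 0.0473 to 0.188. Histone genes are near-identical copies, so reads of one copy may have been assigned to another.

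By gene family, ribosomal proteins contributed 19 low-share peaks in 18 genes of the ALKBH5 shRNA-1 table, 7.48% of its members and 0.642% of its other rows. All 19 were higher in the knockdown, from a median of 0.0740 to 0.239, so that the median remained under 0.25. Histones gave 18 peaks in 14 genes, 7.09% of members and 3.21% of other rows, with a median of 0.114 in scramble and 0.145 in the knockdown. Chaperones and chaperonins, which fold proteins, gave 16 peaks (6.30% against 0.857%) with medians of 0.156 and 0.393. Ribosome biogenesis factors such as NCL and NPM1 gave 14 peaks (5.51% against 1.499%) with medians of 0.115 and 0.356. Proteins of the mitochondrial ribosome, import and respiratory chain also gave 14 (5.51% against 2.36%), with medians of 0.167 and 0.471. Splicing factors of the hnRNP and SR groups gave 12 (4.72% against 2.14%), with medians of 0.117 and 0.385. Aminoacyl-tRNA synthetases, which charge tRNAs, gave 6 members and none of the other rows. These families were drawn up after the gene names were seen, so no test was made.

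**Figure D2:**
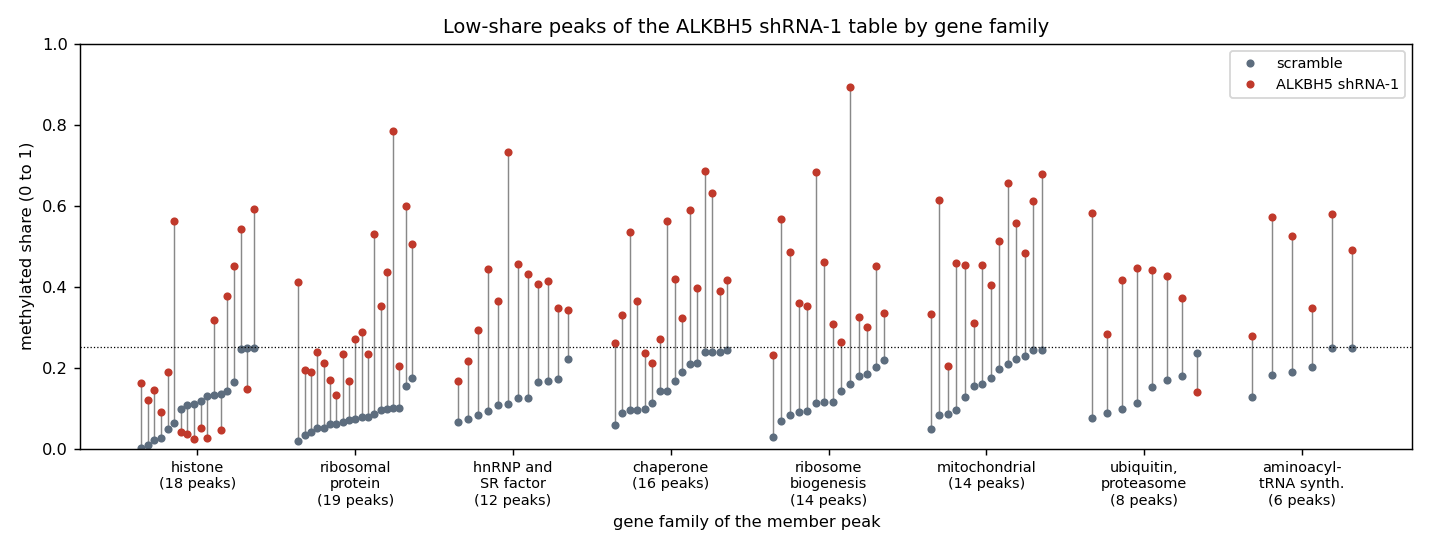
Methylated share (y axis, 0 to 1) in scramble (dark points) and after ALKBH5 shRNA-1 (red points) for each low-share peak of 8 gene families (x axis), in the authors' table. Each vertical line joins the values of 1 peak, and the dotted line marks 0.25. All 19 ribosomal protein peaks are higher in the knockdown, while 7 of the 18 histone peaks are lower.

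Genes with low-share peaks were highly expressed. In the scramble of the RBM33 set, whose libraries were not used to choose the ALKBH5 peaks, the median host gene level was 265 CPM for the ALKBH5 shRNA-1 members and 125 CPM for the other rows of that table. For ALKBH5 shRNA-2 it was 655 CPM against 208 CPM. Across all rows with a host gene, the scramble share and that level had a Spearman rho of -0.40 (n = 717) for ALKBH5 shRNA-1 and -0.52 (n = 181) for ALKBH5 shRNA-2, peaks of 1 gene sharing 1 level. Within the members rho was -0.12 in both tables (n = 252 and n = 64). All of these rows were listed as differential. Whether that listing favours highly expressed hosts among low-share peaks was not tested. The low-share peaks were also short, with a median of 50 bases against 100 for the other rows of the ALKBH5 shRNA-1 table, and 63.4% of them were exactly 50 bases long against 35.8%.

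The position along the gene differed between the ALKBH5 tables. Of the 229 low-share peaks of the ALKBH5 shRNA-1 table with a RefSeq start, 141 (61.6%) began within 200 bases of it, against 130 of 384 other rows (33.9%). Within 50 bases the figures were 120 peaks (52.4%) and 66 other rows (17.2%). Counting only rows with a higher share in the knockdown, 63.8% of members and 30.7% of other rows lay within 200 bases. In the ALKBH5 shRNA-2 table only 4 of 54 members (7.41%) did, against 9.71% of its other rows. Ends of genes showed no such contrast, with 9.88% of ALKBH5 shRNA-1 members and 9.64% of other rows within 500 bases of the RefSeq gene end. Whether a peak lies in an exon, intron or untranslated region was not analysed here.

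**Figure D3:**
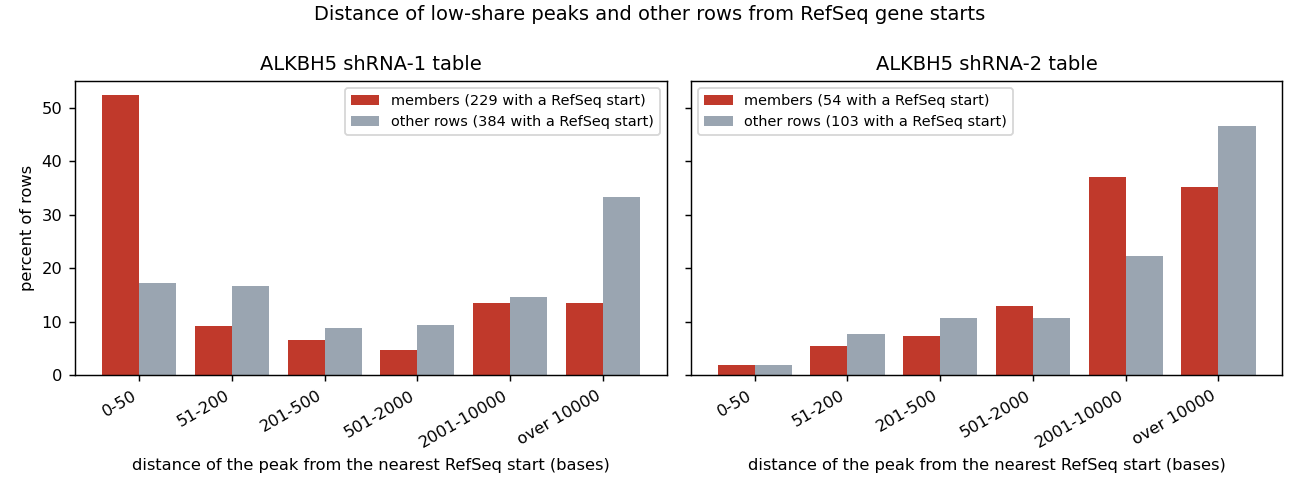
Percent of rows (y axis) by distance of the peak from the nearest RefSeq start in bases (x axis), for low-share peaks (red) and other rows (grey) of both ALKBH5 tables. For ALKBH5 shRNA-1, 52.4% of members and 17.2% of other rows begin within 50 bases, while for ALKBH5 shRNA-2 both values are under 2% (1.85% and 1.94%).

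The 141 members near a start also reached higher shares. Their median went from 0.127 to 0.490, and 47.5% passed 0.5. The 88 members farther than 200 bases away went from 0.138 to 0.367, and 19.3% passed 0.5. The host genes of the near group had a median of 225 CPM in the scramble of the RBM33 set, and those of the far group 347 CPM. A row had to differ between the groups to be listed, which favours high knockdown shares among low-share peaks. The shares of both groups are therefore a description, and the part of the RNA level in them was not tested. Of the 141 near a start, 2 overlapped a row of the ALKBH5 shRNA-2 share table, and of the 88 farther away 9 did. The authors' second kind of deposited table lists an effect per peak. For the same shRNA it comes from the same libraries as the shares, so agreement in sign is not independent. For ALKBH5 shRNA-1 itself, 94 of the 141 and 60 of the 88 overlapped a listed effect peak, 94 and 58 of them with a positive effect. For ALKBH5 shRNA-2, 13 of the 141 did, with 7 positive and 6 negative, whereas 25 of the 88 did, all positive. Neither count is set beside the other rows of the table. The scramble libraries of these comparisons are shared, and whether the m6A libraries of ALKBH5 shRNA-1 differ in coverage near starts was not tested.

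Over all members, 168 of 254 for ALKBH5 shRNA-1 (66.1%) overlapped an effect peak of the same knockdown in the authors' deposited tables, 165 with a positive effect. Of the other rows 65.1% overlapped one, with 159 positive and 145 negative. Of the 64 members for ALKBH5 shRNA-2, 54 overlapped an effect peak, all positive. That count is not set beside the other rows of the table, so nothing is read from it. These effects and the shares come from the same libraries, so the signs are a description. The RBM33 effect tables come from other libraries. They held a peak over 13 of the 254 ALKBH5 shRNA-1 members for RBM33 shRNA-1, 11 of them positive, and over 9 for RBM33 shRNA-2, all positive. These are 5.12% and 3.54% of the members, against 2.57% of the other rows in each case.

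Both ALKBH5 tables use the same scramble, so agreement between them is not independent. Of the 254 ALKBH5 shRNA-1 members 12 (4.72%) overlapped a row of the ALKBH5 shRNA-2 table, as did 32 of the other rows (6.85%), and all 12 members were higher in both. A low scramble share favours that direction in both tables, so this count is a description. By gene, 21 had members in both tables, 9.29% of the ALKBH5 shRNA-1 member genes and 43.8% of those for ALKBH5 shRNA-2. HNRNPA3 and PARP1 had the most low-share rows, 6 each. HNRNPA3, a splicing and transport hnRNP, held 4 peaks in the ALKBH5 shRNA-1 table, from the start of the gene to 6276 bases into it, all between 0.0921 and 0.164 in scramble and between 0.364 and 0.457 in the knockdown. Its peak at chr2:177216727-177216864 went from 0.124 to 0.457 with shRNA-1 and from 0.124 to 0.484 with shRNA-2, in the authors' deposited tables.

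PARP1, the poly(ADP-ribose) polymerase of DNA repair, held 2 low-share peaks in the shRNA-1 table and 4 in the shRNA-2 table, at 0.0743 to 0.235 in scramble and 0.217 to 0.391 in the knockdowns. YBX1, a cold-shock RNA-binding protein, held 5 rows, with chr1:42682645-42683415 at 0.225 in scramble and 0.498 and 0.487 in the knockdowns. TUBA1B (alpha-tubulin) and HSP90AA1 (an HSP90 chaperone) held 4 rows each. The TUBA1B peak at chr12:49129547-49129596 went from 0.112 to 0.266 and from 0.111 to 0.335. TAF15, an RNA-binding TFIID-associated factor, had 1 peak at chr17:35844535-35844584 that went from 0.212 to 0.671 and 0.659. Other genes with members in both ALKBH5 tables were ANP32A, CCT7, HDAC1, HNRNPA2B1, HNRNPU, NCL, NUCKS1, PKM, PSMD4, RPL3, TPI1 and XRCC6, besides PGK1 and ATF4.

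In the ALKBH5 shRNA-2 table the lowest scramble shares were those of PGK1, HSP90AB1 (0.0641 to 0.250), HNRNPA2B1 (0.0701 to 0.230), PARP1 (0.0774 to 0.326), C1QBP (0.0800 to 0.212) and HNRNPU (0.0817 to 0.197). The highest knockdown shares there were those of MCM5, a replication helicase subunit (0.232 to 0.676), TAF15 at 0.659, the splicing factor SRSF4 (0.184 to 0.591), PGK1, the DNA end-binding protein XRCC6 (0.136 to 0.559) and the clathrin adaptor AP2M1 (0.224 to 0.553). The smallest log2 odds ratios, 1.07 to 1.16, belonged to PARP1, YBX1 and NUCKS1. The largest after PGK1 were those of XRCC6 at 3.01 and TAF15 at 2.85.

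PGK1, the glycolytic phosphoglycerate kinase, and ATF4, the transcription factor of the amino acid and endoplasmic reticulum stress response, were the genes with a low-share peak in all 4 tables. In the authors' deposited tables, the PGK1 share went from 0.120 to 0.448 with ALKBH5 shRNA-1, from 0.0619 to 0.579 with ALKBH5 shRNA-2, from 0.0198 to 0.724 with RBM33 shRNA-1 and from 0.0203 to 0.617 with RBM33 shRNA-2. These peaks lay at the start of PGK1, whose RefSeq first base is at position 78104248 of chromosome X, on the forward strand. The peak was chrX:78104219-78104368 for ALKBH5 shRNA-1 and chrX:78104219-78104318 for ALKBH5 shRNA-2, beginning 29 bases before that base. For both RBM33 shRNAs it was chrX:78104269-78104318, which begins 21 bases after it. Vectors that express shRNAs often carry a promoter taken from PGK1. What the vectors of these cells carry is not stated in the labels, and whether reads from a vector enter the PGK1 shares or the PGK1 RNA was not tested. The log2 odds ratios of the PGK1 peaks ranged from 2.58 to 7.02 and were the largest of each of the 3 tables other than ALKBH5 shRNA-1.

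The ATF4 peak lay inside the gene, 1047 to 1097 bases from the nearest RefSeq start, with scramble shares of 0.164 to 0.222 in the 4 tables. It went from 0.164 to 0.314 with ALKBH5 shRNA-1 (chr22:39521609-39522109), from 0.222 to 0.436 with ALKBH5 shRNA-2 (chr22:39521659-39522059), from 0.214 to 0.389 with RBM33 shRNA-1 and from 0.222 to 0.416 with RBM33 shRNA-2, in the authors' deposited tables. The log2 odds ratios were 1.22 to 1.44. The authors' adjusted p-values of the ATF4 peak were 0.0674 for RBM33 shRNA-1 and 0.0994 for RBM33 shRNA-2. The RBM33 tables share their scramble libraries with each other and not with the ALKBH5 tables.

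The reads counted as PGK1 RNA, with the same limit on vector reads, rose in both sets. The ALKBH5 scramble libraries held 248.4, 247.7 and 240.3 CPM, against 449.8 and 419.1 with shRNA-1 and 475.1 and 446.2 with shRNA-2. No library of one kind overlapped the other, and the log2 change was 0.86 (SE 0.063, adjusted p = 1.74e-09). The RBM33 scramble libraries held 284.6, 292.9 and 317.0 CPM, against 370.0 and 351.9 in the libraries labelled RBM33 shRNA-1 and 366.5, 361.4 and 354.1 in those labelled shRNA-2. The groups again did not overlap, with a log2 change of 0.28 (SE 0.060, adjusted p = 0.00239). Neither call was lost under an alternative, the adjusted p reaching at most 0.0276. PGK1 and ATF4 have low-share peaks in the tables of both sets, so libraries of each set helped to choose them. The RNA changes of both genes are therefore descriptions.

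For ATF4 the ALKBH5 scramble libraries held 468.1, 502.6 and 489.4 CPM, and the RNA stood at 551.2 to 577.8 CPM in the 4 ALKBH5 shRNA libraries. It rose by 0.21 on the log2 scale (SE 0.063, adjusted p = 0.0259), a call that was lost under 5 of 17 alternatives, with an adjusted p between 0.00440 and 0.135 over all of them. Among these, it was lost without shRNA-1 replicate 1, shRNA-2 replicate 3, scramble replicate 1 or scramble replicate 3. The RBM33 scramble libraries held 527.8, 531.7 and 543.9 CPM of ATF4 and those labelled RBM33 shRNA 504.6 to 568.5 CPM, which overlap (log2 change 0.02, SE 0.061, adjusted p = 0.859).

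**Figure D4:**
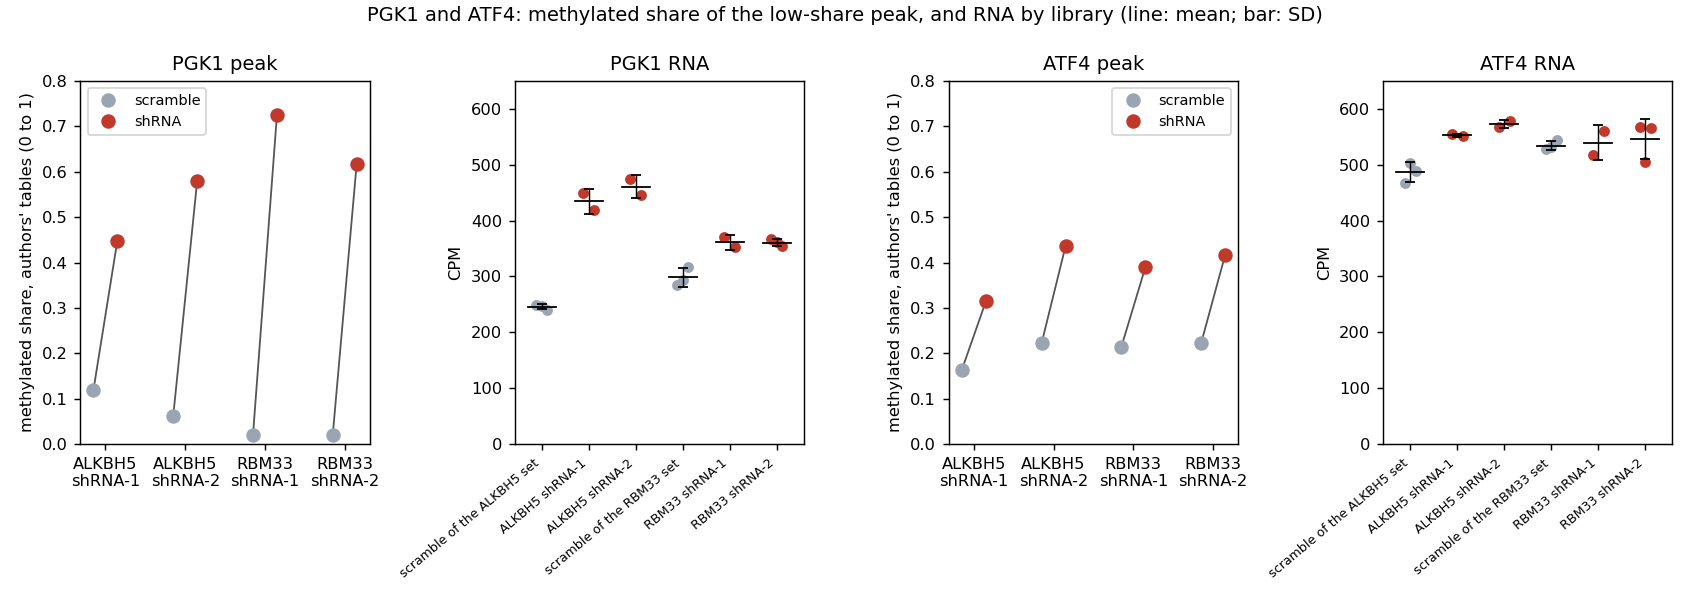
Methylated share of the PGK1 and ATF4 peaks in the authors' 4 tables (share panels, y axis 0 to 1, grey scramble and red shRNA) and RNA level of both genes in CPM (RNA panels) with 1 point per library, a line at the group mean and a bar of 1 SD. PGK1 RNA lies at 240.3 to 317.0 CPM in the scramble libraries and at 351.9 to 475.1 CPM in the shRNA libraries, whereas ATF4 RNA overlaps between groups in the RBM33 set.

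The other low-share peaks of the RBM33 tables sat in 5 genes. In the authors' deposited table for RBM33 shRNA-1, HNRNPM, a splicing factor (chr19:8474196-8483158), went from 0.226 to 0.453 and FLNA, the actin crosslinker filamin A (chrX:154364898-154364947), from 0.231 to 0.586. For RBM33 shRNA-2, DNAJC2, a ribosome-associated chaperone (chr7:103327737-103337767), went from 0.0814 to 0.422. SPIN1, a histone methylation reader (chr9:88388482-88388531), went from 0.117 to 0.630 in a peak 38 bases from the RefSeq start, and TOMM40, the pore of the mitochondrial outer membrane (chr19:44903238-44903287), went from 0.232 to 0.638. The authors' adjusted p-values were 0.0919 for HNRNPM, 0.0817 for FLNA, 0.0191 for SPIN1 and 0.0994 for TOMM40.

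The ALKBH5 contrast uses libraries that played no part in choosing the peaks of the RBM33 tables. PGK1 and ATF4, however, also have low-share peaks in the ALKBH5 tables, so those libraries helped to choose both genes. In this contrast 4 of the 7 host genes rose and 1 fell, PGK1 and ATF4 being among the 4. Of all 18227 genes tested 15.1% were called, 7.93% upward and 7.18% downward. Of genes at 100 CPM or more, 38.01% were called in this contrast, 20.7% upward and 17.3% downward. PGK1, ATF4 and DNAJC2 (0.30, SE 0.075, adjusted p = 0.00743) rose with ALKBH5 shRNA, as did HNRNPM. The rises of PGK1, which carries the limit on vector reads, and of ATF4 are descriptions. SPIN1, at 65.0 to 75.2 CPM in scramble and 48.5 to 56.1 CPM with the shRNAs, fell by 0.37 (SE 0.10, adjusted p = 0.0149). FLNA and TOMM40 changed by -0.11 and 0.07 (adjusted p = 0.281 and 0.703). For HNRNPM the values were 397.5, 423.7 and 447.1 CPM in the scramble of the ALKBH5 set and 563.0 to 617.5 CPM with the shRNAs, a log2 change of 0.48 (SE 0.066, adjusted p = 2.32e-05). The RBM33 set gave 411.1 to 434.1 CPM in scramble and 664.7 to 737.5 CPM with shRNA, a change of 0.73 (SE 0.063, adjusted p = 1.75e-08), with no overlap in either set. The RBM33 libraries helped to choose the HNRNPM peak, so its change in that set is a description. In the ALKBH5 set the call of DNAJC2 was lost with shRNA-1 alone (adjusted p = 0.101) and without scramble replicate 3 (adjusted p = 0.0546). That of SPIN1 was lost with shRNA-2 alone (adjusted p = 0.0914), without shRNA-1 replicate 1 (0.0607) and without scramble replicate 1 (0.0955).

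The genes under the low-share peaks of the ALKBH5 tables were then compared in the RBM33 set, whose libraries did not choose them. Of 251 host genes with a row, 32 were called up and 59 down when libraries labelled RBM33 shRNA were set against scramble, or 36.3%, where 17.7% of all genes tested were called, 8.50% upward and 9.25% downward. Expression level moves with this share: the hosts had a median of 224 CPM over the libraries and all tested genes 15.8 CPM. At 100 CPM or more, 38.6% of 197 hosts and 40.3% of all 1944 such genes were called. The directions at that level were 26 up and 50 down among hosts (13.2% and 25.4%), and 19.8% and 20.5% among all such genes. The median log2 change of the hosts was -0.07, against -0.01 for all genes. With the first RBM33 shRNA alone 59 hosts were called, 23 up and 36 down, beside 10.9% of all genes (5.62% up, 5.27% down). With the second alone it was 78 hosts, 24 up and 54 down, beside 13.7% (6.44% up, 7.27% down). In the ALKBH5 set, which helped to choose the peaks, 66 hosts rose and 38 fell (41.4%, with 15.1% of all genes called), from which nothing is read. For ALKBH5 shRNA-1 alone the count was 72, 52 up and 20 down (all genes 8.53%, with 5.05% up and 3.48% down), and for ALKBH5 shRNA-2 alone 81, 50 up and 31 down (all genes 10.1%, with 5.06% up and 5.0% down).

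Histone genes were 13 of the 59 that fell. Of the 14 histone hosts with a row, 13 fell and 1 rose there, with a median log2 change of -0.66. H4C3 held 929.9, 906.8 and 940.3 CPM in the scramble of the RBM33 set and 443.0 to 500.7 CPM in the 5 shRNA libraries, a change of -0.96 (SE 0.086, adjusted p = 2.55e-08). HIST1H3A (H3C1) fell by 0.84 and HIST1H2AG (H2AC11) by 0.81. H2AZ2, a variant H2A gene, rose by 0.27 (adjusted p = 0.0256). The scramble libraries of the sets differed for these genes: H2AC11 held 708.3 to 905.9 CPM in that of the ALKBH5 set and 1495 to 1663 CPM in that of the RBM33 set, while the libraries labelled RBM33 shRNA held 725.9 to 1048 CPM. In the ALKBH5 set, 3 of the 14 rose and 2 fell. In bulk RNA, fewer cells that carry a transcript and less of it per cell cannot be told apart. Because of the near-identical copies, the values of single histone genes are uncertain.

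**Figure D5:**
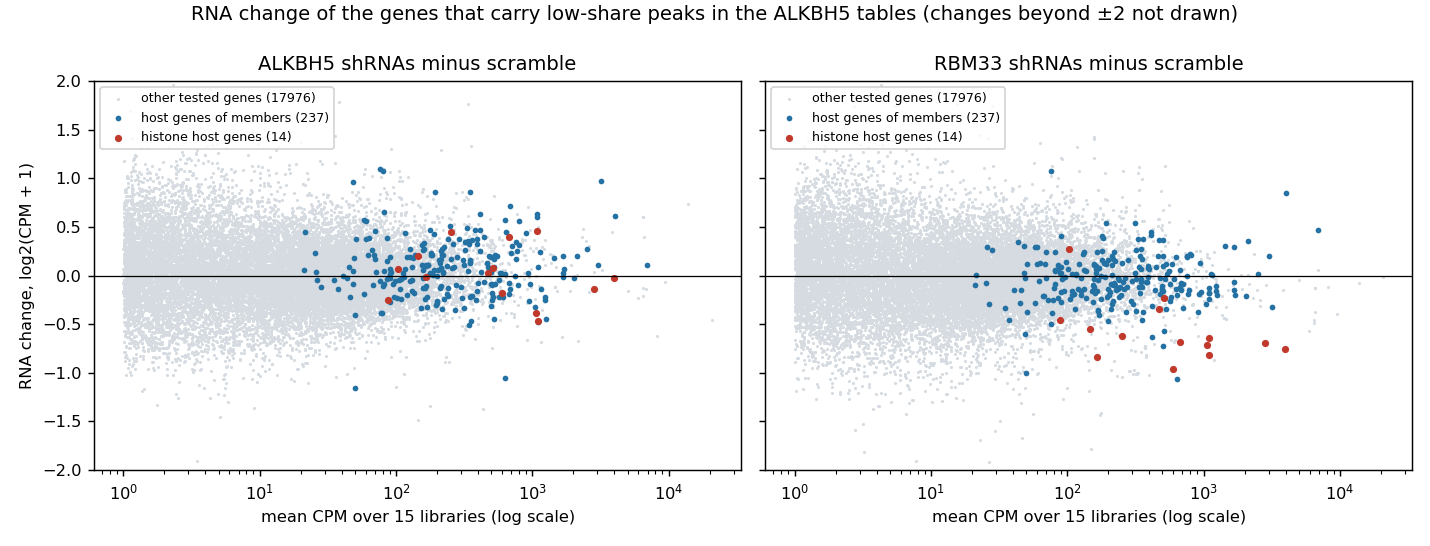
RNA change on the log2(CPM + 1) scale (y axis) against the mean level over 15 libraries (x axis, log scale) for ALKBH5 shRNAs (left) and RBM33 shRNAs (right). Grey points are other tested genes, blue points the host genes of low-share peaks in the ALKBH5 tables and red points the 14 histone hosts, 13 of which fell in the RBM33 set. Hosts lie toward the right because their median is 224 CPM.

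Outside the histones, DDX39A rose most and HSPA5 and PPDPF fell most in the RBM33 set. DDX39A, an RNA helicase of mRNA export, went from 42.3 to 46.4 CPM in its scramble to 89.7 to 98.2 CPM in the 5 libraries labelled RBM33 shRNA, which is 1.08 on the log2 scale (SE 0.093, adjusted p = 1.55e-08), and changed by 1.10 in the ALKBH5 set. HSPA5, the chaperone BiP of the endoplasmic reticulum, went from 886.1 to 1004 CPM in that scramble to 419.8 to 484.7 CPM in the 5 labelled RBM33 shRNA, a change of -1.06 (SE 0.065, adjusted p = 3.84e-11), and changed by -1.05 in the ALKBH5 set. PPDPF went from 64.9 to 75.8 CPM to 28.6 to 41.3 CPM (adjusted p = 2.44e-06), and changed by -1.16 on the log2 scale in the ALKBH5 set. For these 3 genes the libraries do not overlap between scramble and shRNA in either set. They were named for their large RBM33 changes, so the lack of overlap there is largely fixed by that choice. The ALKBH5 libraries helped to choose the hosts, so the values of that set are a description. HSP90AA1, HMGN2 (a nucleosome-binding protein) and MYL6 (a myosin light chain) rose by 0.85, 0.54 and 0.54 in the RBM33 set. In the ALKBH5 set the largest changes also included COX6A1, a respiratory chain subunit, at 1.07, RN7SK at 0.97, NDUFB2 at 0.96, TAF15 at -0.51, HSP90B1 at -0.47 and CBX5, a heterochromatin protein, at -0.47.

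The family counts in the RBM33 set stand beside 8.50% of all genes called up and 9.25% called down, and 19.8% and 20.5% of genes at 100 CPM or more. Of 13 ribosome biogenesis hosts 5 rose and none fell, and of 10 hnRNP and SR hosts 4 rose and 1 fell, HNRNPA3 rising by 0.36 (adjusted p = 9.8e-05). Of 19 ribosomal protein hosts 1 rose and 4 fell, and of 5 translation factors 4 fell. None of 8 ubiquitin and proteasome hosts and none of 4 MCM helicase hosts passed the test. Among 14 chaperone hosts 6 rose and 3 fell. Differences between families were not tested.

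Among the fixed lists, the heat shock list held the most members. Of its 26 genes, HSPA5, HSP90AA1, HSP90AB1, HSP90B1 and HSPD1 carried low-share peaks. Each of these was at 417.6 CPM or more in every library. Over all 18227 genes tested, 251 were hosts of low-share peaks of the ALKBH5 tables, and 197 of the 1944 at 100 CPM or more were. The host counts of this list and of the lists below stand beside those shares, and a difference was not tested. In the authors' deposited table for ALKBH5 shRNA-1, the peaks of HSPA5 went from 0.113 to 0.211 and from 0.142 to 0.270, that of the mitochondrial chaperonin HSPD1 from 0.0959 to 0.364 at its start, and those of HSP90B1, the HSP90 of the endoplasmic reticulum, from 0.239 to 0.390 and 0.244 to 0.416. In the libraries labelled RBM33 shRNA the RNA of HSP90AA1, HSP90AB1 (0.30) and HSPD1 (0.23) rose and that of HSPA5 and HSP90B1 (-0.24) fell. Of 25 tested genes of the list, 14 rose and 5 fell in the RBM33 set and 13 rose and 3 fell in the ALKBH5 set, with medians of 0.29 and 0.32. Over all genes tested, 17.7% were called in the RBM33 set and 15.1% in the ALKBH5 set, and at 100 CPM or more 40.3% and 38.01%.

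The m6A machinery list held 2 members among 32 genes, the reader candidates HNRNPA2B1 and HNRNPC. HNRNPA2B1 held 3 low-share rows, of which chr7:26192338-26196460 went from 0.172 to 0.346 with ALKBH5 shRNA-1, in the authors' deposited table. HNRNPC went from 0.0725 to 0.218. In the libraries labelled RBM33 shRNA the RNA of HNRNPA2B1 rose by 0.30 (adjusted p = 0.00102) and that of HNRNPC fell by 0.17 (adjusted p = 0.0469). Of the 32, 8 rose and 3 fell in the RBM33 set, and 3 rose and 2 fell in the ALKBH5 set, where 17.7% and 15.1% of all genes tested were called. At 100 CPM or more, a level that part of the list reached, 40.3% and 38.01% of all genes were called. The mTORC1 and autophagy list held BECN1, a subunit of the autophagy-initiating lipid kinase complex, at 0.108 in scramble and 0.472 with ALKBH5 shRNA-1, and its RNA changed by -0.06 in the libraries labelled RBM33 shRNA (adjusted p = 0.730). Of its 31 tested genes 6 rose and 2 fell in the RBM33 set, and 8 rose and 6 fell in the ALKBH5 set, beside the same 17.7% and 15.1% of all genes.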

How the data were processed

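The authors deposited m6A tables per shRNA with shares as a fraction (p.treated, p.control), a log2 ratio and log2 odds ratio, an abundance signal and p-values. They also deposited effect tables on the natural log scale, with p-values, and a table of CPM as normalized signal, per the file headers. Per the submitters' processing notes, cutadapt 1.18, HISAT2 2.1.0, Subread 1.6.4 (featureCounts), edgeR 3.24.3 and DESeq2 were used with hg38. The peak caller and the model behind the shares are not given in the sources used here. Shares are values per group, so they carry no spread between libraries. The members and lists were chosen with earlier results of these data known. RNA was tested on log2(CPM + 1) with limma 3.58.1 in R 4.3.3 (trended prior variance), in 18227 of the 21797 genes, those averaging 1 CPM or more, from 6 group means and 9 residual degrees of freedom. A call is a p below 0.05 after Benjamini-Hochberg adjustment, and folds of low genes are understated. Whole reads were recovered from 100% of CPM values within 0.1 of a read and used for edgeR 4.0.16 and DESeq2 1.42.0 as alternatives. The test was tried on simulated data. Nothing in the labels makes the replicates separate cultures. The p-values therefore reflect the spread among these libraries alone, which may be technical. Replicate pairs differed by more than sampling noise (chi-square per degree of freedom 3.03 to 9.09). Members were matched to genes by symbol or older symbol and position, and 325 of 327 matched. Starts are those of a RefSeq table on GRCh38.p14. Peaks count as overlapping from 1 shared base. Named genes follow a rule on the lowest and highest shares and odds ratios, repeat genes, list members, rows beside the threshold and the 5 largest RNA rises and falls. The other genes named were chosen after their values were seen. Some genes that the rule names are not reported here.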

Additional observations from a re-analysis of the deposited data

How the results depend on the processing

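With a threshold of 0.2 the RBM33 tables kept 1 and 3 members, and with only rows of authors' padj below 0.01 the tables kept 128, 17, 1 and 1. The median share difference was 0.292 for ALKBH5 shRNA-1, 0.290 at a threshold of 0.2 and 0.280 at 0.3. For ALKBH5 shRNA-2 it was 0.214, and 0.212 and 0.215 at those thresholds. For RBM33 shRNA-1 it was 0.291, and 0.704 and 0.227, and for RBM33 shRNA-2 0.406, and 0.513 at 0.2. Requiring 50% of the member covered left 1 RBM33 shRNA-1 member over an effect peak. Requiring the same start and end left 6 positions shared by the ALKBH5 tables and 1 by the RBM33 tables. Windows of 100 and 500 bases, added after seeing the data, put 1 and 8 ALKBH5 shRNA-2 members at a start. Called hosts numbered 59 with RBM33 shRNA-1 alone, and 80 to 97 (ALKBH5) and 66 to 92 (RBM33) leaving out each library. Replicate numbers did not pair the libraries (correlations -0.076 to 0.074 between libraries of the same number), and a replicate block gave 95 and 87 called hosts against 104 and 91. Of 245 alternative values for 7 named genes, 20 were no longer called. The 245 include genes not called in the main fit, such as ATF4 in the RBM33 set, which could not be lost. No called change reversed, and a changed sign was not counted where neither fit gave a call. TOMM40 in the RBM33 set was lost in 8 of 18, with an adjusted p between 0.0174 and 0.149. Few members in the RBM33 tables, and no m6A value per library, limit what can be compared.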
